A study of Ovis aries with 8 samples.

Results

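The 52 genes described here encode proteins of the cytosolic ribosome and were taken, by their symbols, from a table of 11247 genes counted in the longissimus thoracis muscle of 8 lambs. The rule took every symbol that began with RPL or RPS and a number, the stalk genes RPLP0, RPLP1 and RPLP2, and RPSA, and left out the RPS6K kinases and RPS19BP1, which encode no ribosomal subunit. It found 30 genes of the large (60S) subunit, 18 of the small (40S) subunit and 4 paralogs, which are second copies of a subunit gene under a symbol of their own: RPL3L, RPL26L1, RPL36AL and RPS27L. RPLP2 and further ribosomal protein genes of such symbols outside these 52 were not analysed here. Ribosomal proteins whose symbols fall outside the rule, such as RACK1 and FAU, are treated further below. All lambs were castrated males of a Dorper by Santa Inês cross. They came from a feeding trial of 20 lambs, 10 per diet, of which 4 per diet were drawn at random for sequencing. The control group (CON, n = 4) ate the control diet, and the other group (SM20, n = 4) ate a diet in which soybean molasses, a syrup rich in sugars left over from making soy protein, made up 20%. The labels give neither the lambs' age nor the length of feeding. The trial was concerned with carcass fat and with lipid oxidation in the meat.

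The cytosolic ribosome translates nuclear messenger RNAs. Its 40S subunit reads the message, its 60S subunit joins the amino acids, and the 2 are built in the nucleolus in matched numbers from ribosomal RNA and 1 copy of most proteins. Many ribosomal protein messages begin with a 5′ terminal oligopyrimidine (TOP) tract, through which their translation follows mTOR complex 1, the nutrient-sensing kinase. Striated muscle is known for a ribosomal protein of its own: RPL3L replaces RPL3 in part of the ribosomes of skeletal and heart muscle. Ribosome number is one of the limits on protein synthesis in muscle.

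The libraries held 8675527 to 11210065 counts, and all 52 genes passed the filter on low counts, which left 9779 genes for testing. Levels are CPM, counts relative to library size, after scaling by the trimmed mean of M-values (TMM), and a log2 fold change is SM20 against CON. The muscle label fitted its markers: 9 of the 12 listed muscle fibre genes were in the table, and together they took 117405 to 189217 CPM in CON and 134433 to 146797 CPM in SM20. CON lamb 1 stood apart in slow fibre markers, at a mean of 10.46 on the log2 CPM scale against 9.22 to 9.77 in the other CON lambs and 9.17 to 9.62 in the SM20 lambs. Adipocyte, endothelium, fibroblast, immune and satellite cell markers and immediate early genes overlapped between the diets in summed level; for immune markers the range was 24.8 to 55.6 CPM in CON and 22.9 to 57.1 CPM in SM20, and 1 of its 10 genes averaged under 1 CPM.

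The ribosomal protein genes took a smaller share of the counts in every SM20 lamb than in any CON lamb. Their share was 1.43, 1.27, 1.30 and 1.30% in CON lambs 1 to 4 and 1.13, 1.18, 1.06 and 1.11% in SM20 lambs 1 to 4. The means were 1.33 ± 0.0715% and 1.12 ± 0.051% (SD, n = 4 per diet), a difference of -0.206 percentage points that became -0.171 points without CON lamb 1, the highest lamb. These shares do not depend on the scaling between libraries, but they do depend on what else is in the library. Mitochondrially encoded genes took 7.57 to 10.9% of the counts in CON and 6.01 to 8.11% in SM20. With those genes taken out of the total, the ribosomal share was 1.46 ± 0.0785% in CON and 1.20 ± 0.0635% in SM20. In whole muscle, fewer cells of a type and less RNA per cell cannot be told apart.

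**Figure D1:**
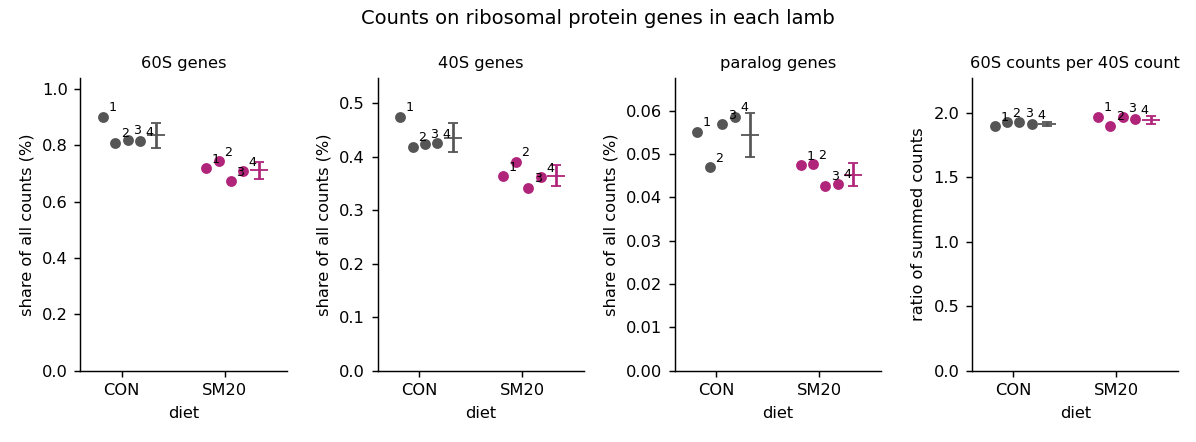
Each point is 1 lamb, numbered 1 to 4 within its diet, with the mean and SD of the 4 lambs beside it. The first 3 panels give the share of all counts, in percent, on 60S, 40S and paralog genes, and the last gives the summed 60S counts per 40S count. The 60S and 40S shares of the SM20 lambs lie below those of all CON lambs, the paralog shares meet, and the 60S to 40S ratio overlaps between the diets.

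Gene by gene, 51 of the 52 lay below 0 on the log2 fold change scale, and their median was -0.29. Over all 9779 tested genes 49.3% were negative and the median was 0.0055. No single ribosomal protein gene passed the test: edgeR's quasi-likelihood test placed 0 of the 52 under an adjusted p of 0.05, where 0.0511% of all tested genes passed in either direction, and the smallest adjusted p was 0.107. At an unadjusted p under 0.05, 20 of the 52 (38.5%) were lower and 0 were higher, against 8.45% of all tested genes lower. DESeq2 placed 3 of the 52 (5.77%) past an adjusted p of 0.05, all lower, against 2.18% of all genes: RPL36, RPL3 and RPL28. For 14 of the 52 (26.9%) every SM20 lamb lay below every CON lamb, against 5.67% of all genes. This count was 24 without CON lamb 3 and 26 without SM20 lamb 2, where 7.96% and 7.65% of all genes lay so. The count of 20 was 9 without CON lamb 1, 9 without SM20 lamb 3 and 31 with upper-quartile scaling, and the median without CON lamb 1 was -0.20, with 49 genes negative. With library size alone 49 were negative. The genes share their lambs and are not independent of one another. Short mRNAs from outside the ribosome, whose part in these values was not tested, had 42 of 47 negative with a median of -0.23. Of these 47, 16 were lower at an unadjusted p under 0.05, and DESeq2 called 5 lower. For 14 of the 47 every SM20 lamb lay below every CON lamb, as for 19 of the 66 mitochondrial ribosomal protein genes. Such counts were thus not particular to the 52 genes.

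**Figure D2:**
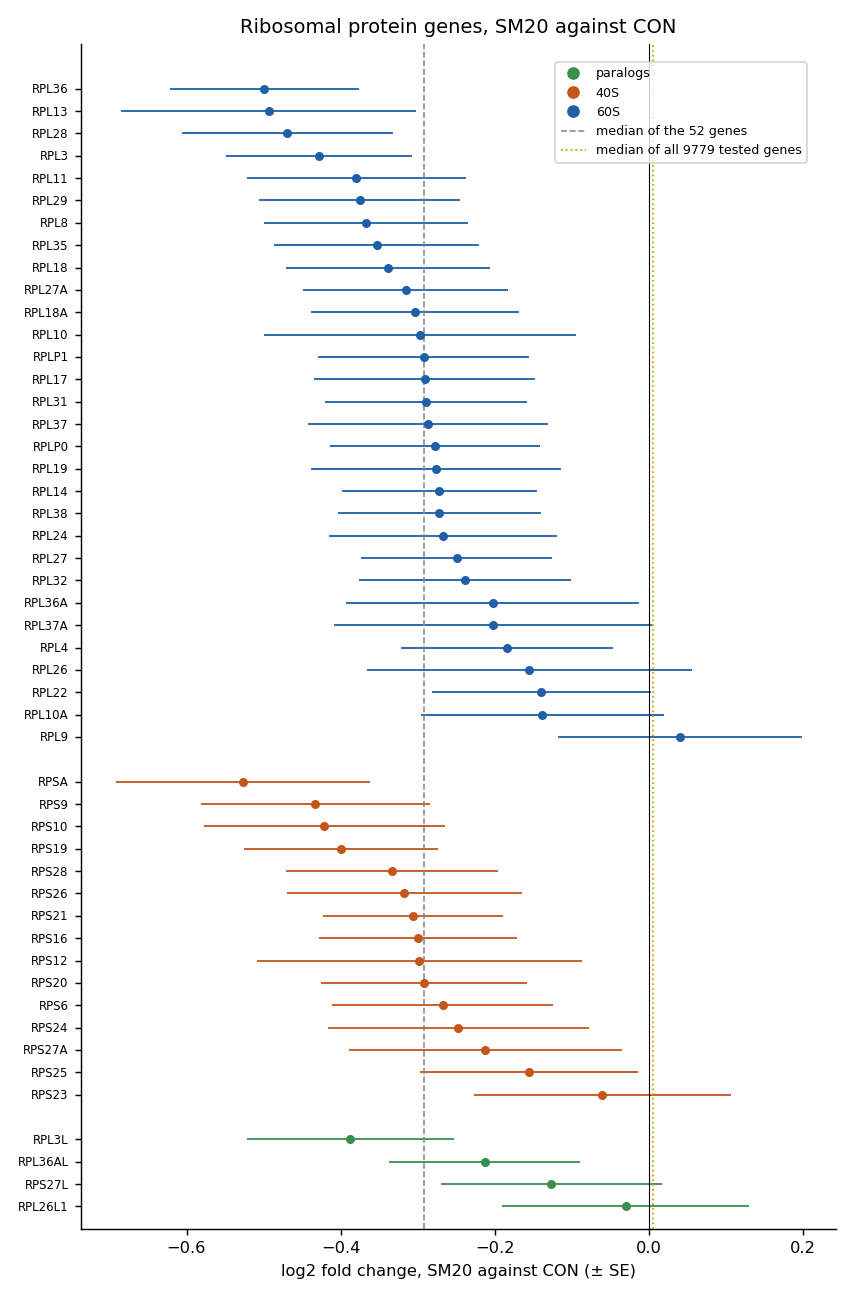
The log2 fold change of each gene shown, SM20 against CON, is drawn with its standard error, for 60S (blue), 40S (orange) and paralog (green) genes. The dashed line marks the median of the 52 genes, -0.29, and the dotted line that of all tested genes, 0.0055; RPL9 is the gene to the right of 0.

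The stalk of the 60S subunit recruits the elongation factors, and RPLP0 is its base and RPLP1 one of its mobile arms. RPLP1 had 1478, 1382, 1084 and 1164 CPM in CON lambs 1 to 4 and 1072, 1138, 1003 and 960.0 CPM in SM20 lambs 1 to 4. CON lambs 1 and 2 were highest, and SM20 lamb 2 lay above CON lamb 3, so the diets overlapped. Its log2 fold change was -0.29 ± 0.14 (SE; edgeR adjusted p = 0.288). RPLP0 had 1283, 1058, 881 and 1050.0 CPM in CON lambs 1 to 4 and 858, 912, 831 and 923 CPM in SM20 lambs 1 to 4. CON lamb 3 lay among the SM20 lambs, and the log2 fold change was -0.28 ± 0.14 (edgeR adjusted p = 0.304), or -0.18 without CON lamb 1. These were the 2 genes of the 52 with the most counts. Transcript lengths were not used here, so levels are not compared between genes.

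Among the other 60S genes the smallest p belonged to RPL36, RPL3, RPL28, RPL29 and RPL8. In each of these 5 the diets did not overlap, but the small p and the lack of overlap come from the same values. Lack of overlap therefore adds no support to genes picked by p. Of all 30 genes of the 60S subunit, 9 did not overlap, with SM20 lower, against 5.67% of all tested genes. RPL36, a 60S protein of the eL36 family, had 66.6, 57.4, 50.3 and 55.8 CPM in CON lambs 1 to 4 and 36.9, 40.8, 42.7 and 42.4 CPM in SM20 lambs 1 to 4. All 4 SM20 lambs lay close together, under the lowest CON lamb, CON lamb 3. The means were 57.5 ± 6.75 CPM in CON and 40.7 ± 2.68 CPM in SM20 (SD, n = 4), a log2 fold change of -0.50 ± 0.12 or a 1.41-fold lower level (edgeR adjusted p = 0.107, DESeq2 adjusted p = 0.0142). RPL3, whose protein reaches to the peptidyl transferase centre where peptide bonds are made, had 76.9, 70.2, 66.7 and 73.8 CPM in CON lambs 1 to 4 and 60.2, 46.2, 51.8 and 55.5 CPM in SM20 lambs 1 to 4. The 4 CON lambs lay close together, and CON lamb 1 did not stand out as it did for most of the 52 genes. Its log2 fold change was -0.43 ± 0.12 (edgeR adjusted p = 0.121, DESeq2 adjusted p = 0.0286). RPL28 had 210.0, 191, 144 and 159 CPM in CON lambs 1 to 4 and 125, 137, 124 and 122 CPM in SM20 lambs 1 to 4. CON lambs 1 and 2 were far above the SM20 lambs and CON lamb 3 only a little, with a log2 fold change of -0.47 ± 0.14 (edgeR adjusted p = 0.129, DESeq2 adjusted p = 0.0393). RPL29 (-0.38 ± 0.13, edgeR adjusted p = 0.173) and RPL8 (-0.37 ± 0.13, edgeR adjusted p = 0.182), a core protein of the 60S subunit, had similar values. RPL8 spanned only 351 to 378 CPM in the SM20 lambs against 411 to 582 CPM in CON. RPL24, the third of the 60S genes by counts, sits at the bridge to the 40S subunit and had a log2 fold change of -0.27 ± 0.15 (edgeR adjusted p = 0.362), or -0.15 without CON lamb 1. At the other end were RPL9 and RPL10A. RPL9, which lies near the stalk base, had 22.8, 20.9, 20.2 and 18.3 CPM in CON lambs 1 to 4 and 16.2, 20.3, 23.8 and 24.1 CPM in SM20 lambs 1 to 4; the lowest and the highest values both fell among SM20 lambs. Its log2 fold change was 0.040 ± 0.16, the only positive value among the 52 genes, and it was negative without CON lamb 4, SM20 lamb 3 or SM20 lamb 4. RPL10A had -0.14 ± 0.16, which was 0.010 without CON lamb 1, -0.069 without SM20 lamb 3 and -0.24 without CON lamb 4.

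In the 40S subunit all 18 genes had negative values. The smallest p belonged to RPSA, RPS19, RPS9, RPS10 and RPS21. RPSA, a protein near the exit of the messenger RNA channel that is also known as the laminin receptor, had 401, 268, 239.6 and 262 CPM in CON lambs 1 to 4 and 210.0, 203, 185 and 214 CPM in SM20 lambs 1 to 4. CON lamb 1 was far above all others, while the other CON lambs still lay above every SM20 lamb. Its log2 fold change of -0.53 ± 0.17 (SE) was the most negative of the 52 (edgeR adjusted p = 0.141), and it was -0.34 without CON lamb 1. RPS19, which is needed for the maturation of 40S precursors and is mutated in human Diamond-Blackfan anaemia, had 283, 245, 215 and 219 CPM in CON lambs 1 to 4 and 174, 194, 192 and 169 CPM in SM20 lambs 1 to 4. The diets did not overlap, and the log2 fold change was -0.40 ± 0.13 (edgeR adjusted p = 0.143, DESeq2 adjusted p = 0.0501). RPS9, a protein of early 40S assembly, had 377, 359, 291 and 313 CPM in CON lambs 1 to 4 and 270.2, 296, 215 and 212 CPM in SM20 lambs 1 to 4. SM20 lamb 2 lay above CON lamb 3, and the log2 fold change was -0.43 ± 0.15 (edgeR adjusted p = 0.173). RPS10 (-0.42 ± 0.16, edgeR adjusted p = 0.191) overlapped between the diets, and RPS21 (-0.31 ± 0.12, edgeR adjusted p = 0.201) did not. RPS25, which internal ribosome entry sites need, had a log2 fold change of -0.16 ± 0.14, which was -0.085 without CON lamb 1, -0.085 when SM20 lamb 1 was left out and -0.26 when SM20 lamb 4 was. RPS23, a protein of the decoding centre, had 48.3, 50.3, 35.4 and 37.96 CPM in CON lambs 1 to 4 and 36.97, 37.3, 37.8 and 52.9 CPM in SM20 lambs 1 to 4, so that SM20 lamb 4 was the highest of all 8 lambs; its log2 fold change of -0.060 ± 0.17 (edgeR adjusted p = 0.885) changed sign with library size alone and without CON lamb 1 or CON lamb 2, and was -0.20 without SM20 lamb 4.

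**Figure D3:**
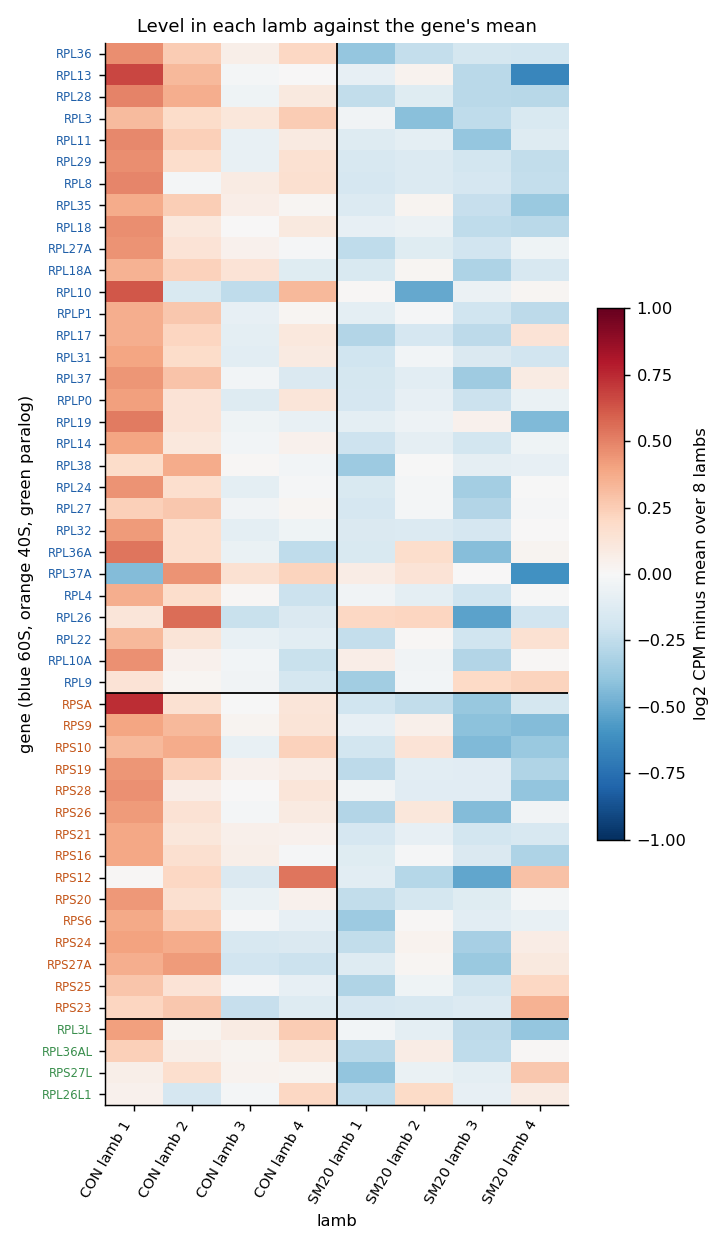
Each row is 1 gene of those shown and each column 1 lamb; the colour is log2 CPM minus the gene's mean over the 8 lambs, from blue (lower) to red (higher). Of all 52 genes, CON lamb 1 has the highest level of 41 genes, and the lowest level of 48 genes falls in SM20 lamb 1, 3 or 4.

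The 2 subunits had like values. The median log2 fold change was -0.29 over 30 genes of the 60S subunit, with 29 negative, and -0.30 over 18 genes of the 40S subunit. At an unadjusted p under 0.05, 12 of the 30 and 7 of the 18 were lower, against 8.45% of all tested genes, and the diets did not overlap, with SM20 lower, for 9 and 4, against 5.67%. The summed 60S counts per 40S count were 1.90, 1.93, 1.93 and 1.91 in CON lambs 1 to 4 and 1.97, 1.90, 1.96 and 1.95 in SM20 lambs 1 to 4, which overlapped. Their means were 1.92 ± 0.0158 and 1.95 ± 0.0316 (SD, n = 4). By the mean over genes of log2 CPM relative to each gene's own mean, the 40S genes lay between -0.045 and 0.034 from the 60S genes in the 8 lambs.

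The order of the lambs was shared by most of the genes. CON lamb 1 had the highest level of 41 of the 52 genes and CON lamb 2 of 6 more, while SM20 lambs 1, 3 and 4 had the lowest level of 15, 18 and 15. The whole set averaged 0.36, 0.19, -0.035 and 0.037 in CON lambs 1 to 4 and -0.16, -0.056, -0.22 and -0.11 in SM20 lambs 1 to 4, as log2 CPM relative to each gene's mean over the 8 lambs. On this scaled level CON lambs 1 and 2 stood well above, and CON lamb 3 lay close to SM20 lamb 2. The TMM factors were 0.8845, 0.9219, 1.1 and 1.033 in CON lambs 1 to 4 and 1.008 to 1.035 in the SM20 lambs. A lower factor gives a higher CPM. By share of counts, without this scaling, CON lamb 2 was the lowest CON lamb, at 1.27%. CON lamb 3 had 1.30% against 1.18% in SM20 lamb 2. The part of the scaling in the order of the lambs was not tested. Within diets, after each diet's mean was removed, the median correlation between pairs of the 48 genes without paralogs was 0.62 over the 8 lambs. It was 0.16 for pairs of the 66 mitochondrial ribosomal protein genes. All of these genes share libraries and scaling. Levels also differed: per lamb the 66 genes averaged 4.96 to 5.38 on the log2 CPM scale and the 48 genes 7.10 to 7.71. The part of level in this contrast was not tested, and no correlation was computed without CON lamb 1. The fold changes of the 52 genes had an SD of 0.11, and 35 lay within 0.10 of the median. The median standard error of a single gene was 0.14. That error includes differences between lambs that the genes share, which an SD over genes leaves out. The SD and the standard error therefore do not measure the same spread.

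A few genes did not follow the others. These were picked after their values were seen. RPL37A, a zinc-binding 60S protein, had 42.0, 77.2, 62.8 and 66.2 CPM in CON lambs 1 to 4 and 59.8, 62.1, 56.8 and 37.2 CPM in SM20 lambs 1 to 4. It was lowest in SM20 lamb 4 and CON lamb 1, the lamb in which most of the set was highest, and its within-diet correlation with the mean of the others was -0.48. RPS12, a 40S protein near the subunit's beak, ranged from 9.39 CPM in SM20 lamb 3 to 19.5 CPM in CON lamb 4, with CON lamb 1 at 13.6 CPM and a within-diet correlation of -0.0086. RPL3 also followed the others weakly within diets, at 0.18, and RPL9 at 0.27, whereas RPL24 followed them at 0.96. Of the paralogs, RPL26L1 had 0.053, RPS27L 0.19, RPL3L 0.42 and RPL36AL 0.62. Of the 48 genes without paralogs, 26 had a correlation over 0.8, so weaker ones were not limited to the genes named. Ribosomal protein genes have many near-identical processed pseudogenes, and reads of such copies can be assigned to either or dropped, so the level of a single gene is uncertain.

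Outside the 52 genes, the closest within-diet profile to the mean of the 48 belonged to TTC3, a ubiquitin ligase (Pearson r = 0.97 over 8 lambs). CSNK1G2, a casein kinase, TCEA3, a transcription elongation factor, ENOX2, a cell-surface oxidase, and TLL2, a tolloid-like protease, each had r = 0.96. Their log2 fold changes were 0.11 ± 0.16, -0.16 ± 0.10, -0.26 ± 0.12, 0.063 ± 0.27 and -0.64 ± 0.35 in that order, and none of these 5 passed the test (edgeR adjusted p = 0.288 to 0.93). They were picked as the highest of 9727 tested genes over only 8 lambs, and such a choice gives high r by itself. TLL2 also had a low level, with means of 1.43 CPM in CON and 0.90 CPM in SM20.

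No shift of a paralog against its parent gene was detected. RPL3L, the striated-muscle form of RPL3, had 463, 355, 369 and 415 CPM in CON lambs 1 to 4 and 342, 326, 291 and 266 CPM in SM20 lambs 1 to 4. Every SM20 lamb lay below every CON lamb, and the log2 fold change was -0.39 ± 0.13 (edgeR adjusted p = 0.173), beside -0.43 ± 0.12 for RPL3. The log2 ratio of RPL3L to RPL3 was 2.58, 2.33, 2.46 and 2.48 in CON lambs 1 to 4 and 2.50, 2.81, 2.48 and 2.25 in SM20 lambs 1 to 4. The highest and the lowest ratio were both in SM20 lambs. The ratio differed by 0.044 ± 0.12 (SE) between diets, with exact two-sided permutation p = 0.771 and 0.857 after adjustment over the 3 pairs; the smallest p that 4 lambs against 4 allow is 0.0286. RPL36AL had 84.3, 74.7, 72.9 and 77.3 CPM in CON lambs 1 to 4 and 59.3, 75.1, 59.96 and 72.2 CPM in SM20 lambs 1 to 4, with overlap between the diets and a log2 fold change of -0.21 ± 0.12 (edgeR adjusted p = 0.379), beside -0.20 ± 0.19 for RPL36A. The value of RPL36A was -0.035 without CON lamb 1, -0.10 without SM20 lamb 3 and -0.32 without CON lamb 4. Their log2 ratio differed by -0.030 ± 0.16 (SE; exact permutation p = 0.857, adjusted 0.857). RPL26L1, the gene with the fewest counts of the 52, had 12.1, 10.5, 11.6 and 13.6 CPM in CON lambs 1 to 4 and 9.85, 13.4, 11.1 and 12.4 CPM in SM20 lambs 1 to 4 and a log2 fold change of -0.030 ± 0.16 (edgeR adjusted p = 0.945) that changed sign with library size alone and without CON lamb 4 or SM20 lamb 1. RPL26 itself ranged widely within both diets, from 68.4 CPM in SM20 lamb 3 to 146 CPM in CON lamb 2, with a log2 fold change of -0.15 ± 0.21 that turned positive without CON lamb 2 and was -0.024 without SM20 lamb 3; with CON lamb 3 or 4 or SM20 lamb 1 or 2 left out it lay between -0.25 and -0.24. The log2 ratio of this pair differed by 0.12 ± 0.31 (SE; exact permutation p = 0.686, adjusted 0.857), the widest error of the 3 pairs. RPS27L, known in human cells as a p53 target, had 64.8, 69.9, 63.6 and 63.2 CPM in CON lambs 1 to 4 and 47.3, 59.5, 58.04 and 74.8 CPM in SM20 lambs 1 to 4, with the lowest and the highest value in SM20 lambs and a log2 fold change of -0.13 ± 0.14 (edgeR adjusted p = 0.683), which was -0.029 when SM20 lamb 1 was left out and -0.25 when SM20 lamb 4 was. Its parent RPS27 was not analysed here. These errors leave room for moderate shifts in a pair, so equal change was not shown. Reads shared between a paralog and its parent may have been assigned to either.

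**Figure D4:**
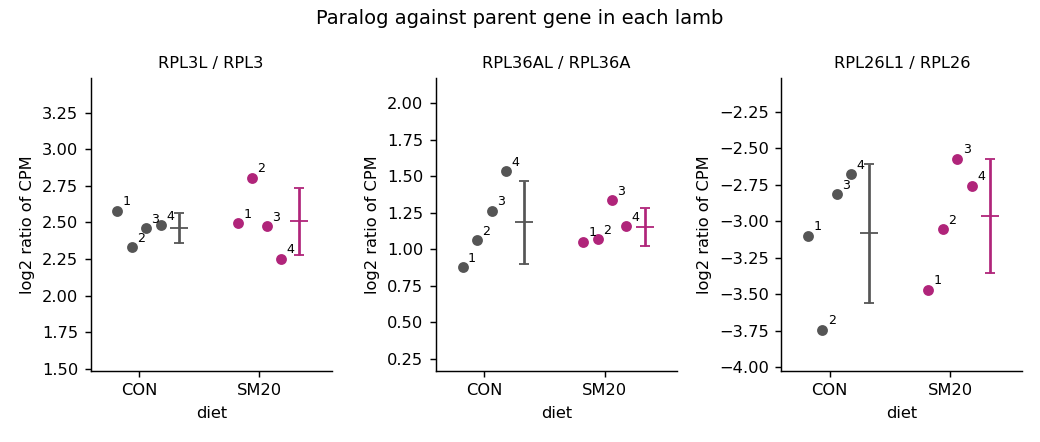
The log2 ratio of the paralog's CPM to the parent's CPM is given for each lamb, numbered 1 to 4 within its diet, with the mean and SD of the 4 lambs beside it; each panel spans the same range of log2 units. The diets overlap in all 3 pairs, and the spread is widest for RPL26L1 against RPL26.

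Other proteins of the ribosome have symbols that fall outside the rule. RACK1, the scaffold protein on the head of the 40S subunit, had a log2 fold change of -0.26 ± 0.14 (edgeR adjusted p = 0.337), or -0.17 without CON lamb 1, and FAU, which encodes the 40S protein eS30 behind a ubiquitin-like leader, -0.33 ± 0.19 (edgeR adjusted p = 0.373).

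Translation genes beyond the ribosome itself did not share the negative direction as a body. Of 11 tested elongation factors and other mRNAs known for a TOP tract 7 were negative, with a median of -0.052. All 4 tested genes of elongation factor 1, which brings transfer RNAs to the ribosome, were negative: EEF1A1 (-0.27 ± 0.19), EEF1A2 (-0.26 ± 0.17), EEF1G (-0.40 ± 0.17) and EEF1D. EEF1D, an exchange factor subunit, had 350.5, 255, 230.4 and 254 CPM in CON lambs 1 to 4 and 211, 209, 187 and 175 CPM in SM20 lambs 1 to 4, without overlap, and a log2 fold change of -0.48 ± 0.15 (edgeR adjusted p = 0.138). TPT1, which encodes the tumour protein TCTP and has a TOP tract, had 472, 442, 355 and 336 CPM in CON lambs 1 to 4 and 1158, 1082, 355 and 370.5 CPM in SM20 lambs 1 to 4, so that SM20 lambs 1 and 2 were far above the rest and SM20 lambs 3 and 4 lay within the CON range (0.89 ± 0.37, edgeR adjusted p = 0.236). Without SM20 lamb 1 its log2 fold change was 0.59. Of 87 ribosome biogenesis factors 37 were negative, with a median of 0.049. The smallest p belonged to ZNHIT3, a factor of small nucleolar RNA particles (-0.76 ± 0.19, edgeR adjusted p = 0.107), and NOP10, a small protein of the pseudouridylation particle (-0.47 ± 0.12, edgeR adjusted p = 0.113, DESeq2 adjusted p = 0.0216). Of 13 genes of RNA polymerase I and its factors, which transcribe ribosomal RNA, 7 were negative, with a median of -0.031. RRN3, the initiation factor, had 0.35 ± 0.16 (edgeR adjusted p = 0.269) and TAF1C -0.34 ± 0.19 (edgeR adjusted p = 0.369), or -0.23 without CON lamb 4. Of 18 genes of mTOR complex 1 and TOP translation control 8 were negative, with a median of 0.088. TSC1, an inhibitor of the pathway, had 33.3, 32.7, 29.7 and 38.2 CPM in CON lambs 1 to 4 and 54.98, 55.8, 39.8 and 40.8 CPM in SM20 lambs 1 to 4. Every SM20 lamb lay above every CON lamb, with a log2 fold change of 0.52 ± 0.15 (edgeR adjusted p = 0.129, DESeq2 adjusted p = 0.0492). EIF4EBP2, a repressor of cap-dependent translation, had 0.48 ± 0.15 (edgeR adjusted p = 0.134) and LARP1, which binds TOP messages, 0.33 ± 0.14 (edgeR adjusted p = 0.238). Other genes of this list went both ways. TBC1D7 had -0.39 ± 0.17 (edgeR adjusted p = 0.250), TSC2 -0.087 ± 0.12 and EIF4EBP1 -0.013 ± 0.15, while MTOR had 0.16 ± 0.14 and RPTOR 0.14 ± 0.12. edgeR called 0 genes of these lists. At an unadjusted p under 0.05, 3 elongation and TOP genes were lower and 1 higher, 6 biogenesis factors lower and 8 higher, 0 polymerase I genes lower and 1 higher, and 1 control gene lower and 3 higher, against 8.45% of all genes lower and 9.84% higher. DESeq2 called 2 of the 87 biogenesis factors lower and 2 higher, 1 of the 18 control genes higher, TSC1, and 0 genes of the elongation factor and polymerase I lists. Over all 9779 tested genes it called 213 (2.18%) lower and 276 higher.

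The proteins of the mitochondrial ribosome, a separate machine that translates the messages of mitochondrial DNA, had similar values. Of the 66 genes 63 were negative, with a median of -0.27, and 26 were lower at an unadjusted p under 0.05, against 8.45% of all tested genes. edgeR called 0 and DESeq2 called 13, all lower, against 2.18% of all tested genes lower. Short messages had values of the same sign as the ribosomal genes, and long ones of the opposite sign. Of 47 short mRNAs from outside ribosome and mitochondria 42 were negative (median -0.23), with summed levels of 3222 to 3411 CPM in SM20 against 3676 to 3913 CPM in CON. Of 31 long mRNAs, such as those of the giant proteins nebulin and dystonin, 28 were positive (median 0.33), with summed levels of 30836 to 38135 CPM in SM20 against 21143 to 25913 CPM in CON. Neither list overlapped between the diets. All 9 slow fibre markers were negative as well (median -0.56), with summed levels that overlapped, at 10983 to 26356 CPM in CON and 11354 to 16154 CPM in SM20. Muscle fibre markers had 8 of 9 negative (median -0.19) and mitochondrially encoded genes 11 of 11 (median -0.41). Endothelium markers had 8 of 10 negative (median -0.27) and adipocyte markers 5 of 6 (median -0.28), while all 5 tested satellite cell markers were positive (median 0.22). Fibroblast markers had 6 of 10 negative (median -0.032), immune markers 4 of 9 (median 0.086) and immediate early genes 4 of 9 (median 0.20). The part of message length, fibre type and other cell types in the values of the ribosomal protein genes was not tested. Ribosomal protein messages are themselves short.

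**Figure D5:**
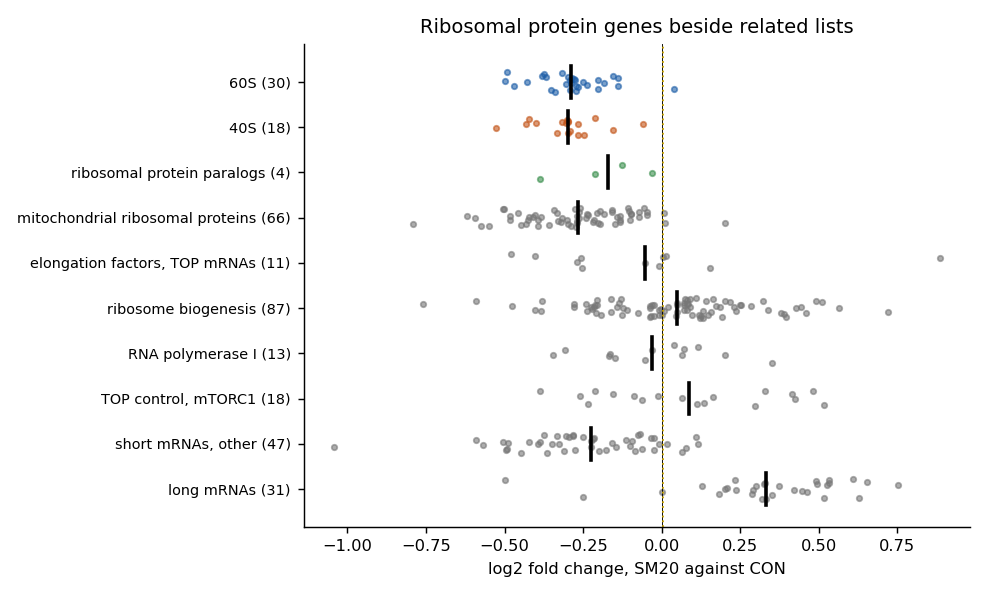
Each point is the log2 fold change of 1 gene, SM20 against CON, the black bars are list medians, and the number of tested genes of each list stands in brackets. The 60S, 40S, mitochondrial ribosomal and short-mRNA lists have medians between -0.30 and -0.23, the elongation factor, biogenesis, polymerase I and TOP control lists lie around 0, and the long mRNAs lie at 0.33.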

How the data were processed

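RNA was extracted with RNeasy columns, and TruSeq Stranded mRNA libraries were made from its polyadenylated part, per the labels' protocols. The authors deposited whole-number read counts per gene symbol, without normalization; the submitters' processing notes name STAR, featureCounts, Trim Galore with cutadapt, and DESeq2. The genome build, annotation, strand setting and tool versions were not given in the sources used here, so overlapping and antisense genes may not have been told apart, and no coordinates or sequences are given. All 8 columns matched 1 sample each, and a deposited sample sheet gave the labelled diet for all 8. Replicate numbers follow accession order and pair nothing. Counts of any pair of libraries differed beyond sampling noise (chi-square per degree of freedom of at least 20.0). Of the 52 symbols, 50 were found in the RefSeq table of ARS-UI_Ramb_v3.0.

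The diets were compared by the quasi-likelihood F-test of edgeR 4.0.16 (R 4.3.3) with diet as the only term, TMM scaling and the default expression filter with a minimum count of 10, on all 9779 genes that passed. P-values are two-sided and adjusted by the Benjamini-Hochberg method over all tested genes, with a threshold of 0.05. The standard error is the log2 fold change divided by the square root of F. The test was tried on simulated counts. The precision is limited by the spread between lambs: the common biological coefficient of variation was 0.225. Paralog ratios, with a pseudocount of 0.5 CPM, were tested by exact permutation over the 70 assignments (scipy 1.17.1). Alternatives were DESeq2 1.42.0 on the same filtered genes, other scalings and filters, and leaving out each lamb; TMM without mitochondrially encoded genes and an adjusted p of 0.10 were added after seeing the data, as were the lists of short and long mRNAs, drawn up from general knowledge. The members and all lists were chosen with earlier results of these data known, so no score over a list was tested. Named genes were the paralogs and their parents, stalk genes and RPSA, and of each subunit the 5 with the smallest p, the 3 with the most counts and the 2 with the most positive fold change, plus any gene called by edgeR or DESeq2; from each translation list the 2 with the smallest p, and the 5 genes most like the set within diets. FAU, LARP1, TBC1D7, TSC2, EIF4EBP1, MTOR, RPTOR, EEF1A1, EEF1A2, EEF1G, RPL37A and RPS12 were named after their values were seen. Some genes that this rule or the lists hold are counted but not reported here by name or in the plots of single genes.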

Additional observations from a re-analysis of the deposited data

Results flagged for a closer look

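In CON lamb 1 the ribosomal protein genes took 1.43% of the counts, away from the 1.27 to 1.30% of the other 3 CON lambs by Dixon's test for a single stray value. The same lamb was flagged for the 60S genes, at 0.901% against 0.808 to 0.819%, and for the 40S genes, at 0.476% against 0.419 to 0.426%. All 3 measures rest on the same counts. RPS23 was flagged in SM20 lamb 4, at 52.9 CPM against 36.97 to 37.8 CPM in the other SM20 lambs. These 4 flags came from 88 groups of 4 lambs, and chance alone flags about 1 in 20 groups.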

How the results depend on the processing

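The median of the 52 genes was negative under every alternative run: it was -0.23 when libraries were scaled by size alone and -0.33 with upper-quartile factors, and leaving out single lambs gave -0.35 to -0.20 (-0.35 to -0.21 for 60S, -0.36 to -0.20 for 40S and -0.25 to -0.095 for paralogs). The median of all genes moved by less than 0.1 under each of them. Of the 52 genes, edgeR called 0 under every scaling, filter and left-out lamb and at an adjusted p of 0.10, and DESeq2 called 3. Over all genes the 5 edgeR calls became 489 with DESeq2, 1 with upper-quartile scaling, 0 without a filter and 0 when any single lamb was left out. Some single fold changes near 0 changed sign or moved by over 1.5 times. With library size alone RPS23 had 0.0060 and RPL26L1 0.016, while RPL10A had -0.072, RPL26 -0.085, RPL36A -0.13, RPS25 -0.096 and RPS27L -0.075. With single lambs left out RPS23 ranged over -0.20 to 0.013, RPL9 over -0.032 to 0.15, RPL26L1 over -0.10 to 0.043, RPL10A over -0.24 to 0.010 and RPL26 over -0.25 to 0.024. The cause was not tested. The ribosomal share differed by -0.226 to -0.171 percentage points with single lambs left out and the paralog ratios by -0.055 to 0.13, -0.13 to 0.086 and -0.10 to 0.29 in the order of the report. No paired analysis was possible because the labels give no replicate numbers that the diets share.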

Other observations

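The table also held a row named 5.8S rRNA, the small ribosomal RNA of the 60S subunit, which is not polyadenylated. It had 102, 132, 138 and 158 counts in CON lambs 1 to 4 and 62, 250, 34 and 46 counts in SM20 lambs 1 to 4, so that SM20 lamb 2 was the highest and the other 3 SM20 lambs the lowest of the 8. The log2 fold change was -0.47 ± 0.51 (SE; edgeR adjusted p = 0.666).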
